A study of Homo sapiens with 6 samples.

Results

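The genes described here encode the translation initiation and elongation factors of human cells. They are the 55 gene names, of 23559 in the authors' table, that begin with EIF1, EIF2B, EIF3, EIF4, EIF5, EIF6, EEF1 or EEF2, without the pseudogene and antisense names (3 names were left out on that ground) and without the genes of eIF2 itself and its kinases. They were sorted into 11 groups by the complex their products belong to, and they were chosen by name and not by a measured value. HEK293, a human embryonic kidney cell line that carries transforming adenovirus genes, was grown at 37°C. An aliquot of the cells was taken at passaging, and the heat shocked cells spent 30 minutes at 45°C in a water bath while control cells were left untreated. Each condition was treated and sequenced 3 times from total RNA depleted of ribosomal RNA, which gave 3 control and 3 heat shock libraries, and the study's text places the comparison 30 minutes after the heat shock. No source says whether the 3 samples of a condition came from separate cultures, so p-values measure only the spread between these samples.

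Translation of an mRNA begins when eIF4E binds its cap, eIF4G bridges the cap to the ribosome, and the helicase eIF4A, helped by eIF4B and eIF4H, opens the leader. The small ribosomal subunit arrives with eIF1, eIF1A, eIF3, eIF5 and the initiator tRNA held by eIF2, which eIF2B recharges with GTP. eIF5B joins the subunits, eEF1A delivers each aminoacyl-tRNA and is recharged by eEF1B, eEF2 moves the ribosome along the mRNA, and eIF5A relieves stalled ribosomes. In heat shocked cells, general translation is known to fall through changes in the factor proteins, such as phosphorylation of eIF2 and eEF2, which an RNA library does not measure.

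Many mRNAs of the translation apparatus start with a 5′ terminal oligopyrimidine tract (TOP), a C followed by a run of C and T that couples their translation to growth signals. The starts of the factor genes are shown because they set apart members whose promoters carry this tract. In RefSeq's GRCh38.p14 table, 45 of the 55 names had a promoter window, and these held 61 windows of 300 bases (250 before and 50 after the start). A C at the first transcribed base followed by at least 4 bases that are each C or T stood in 9 of the 61 windows (14.8%) and in 4.07% of all 35116 windows of the table. The capitals below mark the pyrimidine run of these 9 genes, and each line gives the 10 bases before and the first 20 bases of the transcript.
EEF1A1: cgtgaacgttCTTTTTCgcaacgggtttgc
EEF1B2: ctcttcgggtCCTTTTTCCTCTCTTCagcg
EEF2: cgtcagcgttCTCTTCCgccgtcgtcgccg
EIF3D: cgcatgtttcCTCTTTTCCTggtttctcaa
EIF3F: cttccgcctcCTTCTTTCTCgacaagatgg
EIF3K: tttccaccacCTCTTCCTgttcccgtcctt
EIF3M: gcccagttccCTTTTCCggtcggcgtggtc
EIF4A2: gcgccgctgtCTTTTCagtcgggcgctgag
EIF4B: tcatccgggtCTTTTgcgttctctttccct
Of the abundant members, EEF1G, EIF1 and EIF4A1 had no such run at the annotated start, and their windows, in lower case throughout, read as follows.
EEF1G: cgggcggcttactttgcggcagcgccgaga
EIF1: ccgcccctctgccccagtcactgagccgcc
EIF4A1: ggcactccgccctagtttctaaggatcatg
On GRCh38.p14 the EEF1A1 window lies on the minus strand of chromosome 6 from 73521013 to 73521042, the EEF2 window on the minus strand of chromosome 19 from 3985444 to 3985473, and the EIF4A2 window on the plus strand of chromosome 3 from 186783567 to 186783596. The core of the heat shock element, GAANNTTC, which reads the same on both strands and was searched apart from the tract over the whole window, was found in 4 of the 61 member windows (6.56%), those of EEF1A1, EEF1B2, EIF4A2 and EIF5. It was found in 6.77% of all windows and in 10 of the 16 windows of 12 heat shock genes.

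The value of a gene in a library is the FPKM (fragments per kilobase of transcript, scaled to the mapped fragments) that Cufflinks gave its transcripts, summed over the annotated transcripts and the assembled transcripts grouped with them. Library values are listed below in the order of the replicate numbers 1, 2 and 3. The files hold no read counts. Depth could be judged only from the coverage that 1 FPKM stands for, and the deepest library had 2.03 times that of the shallowest. Abundant genes rose and fell together between libraries: a common factor, the median ratio over the 977 genes that exceeded 10 FPKM in every library, was 0.939, 0.435 and 0.957 in controls and 2.13, 2.32 and 0.487 after heat shock. Of 6 HEK293 markers, KRT8, KRT18, VIM, NEFL and NEFM were above 1 FPKM in all 6 libraries and PAX2 was not. Of 6 markers of other cell types, PTPRC, ALB, HBB, COL3A1 and PECAM1 were under 1 FPKM in all libraries, and the fibroblast marker COL1A1 lay between 3.23 and 4.16 FPKM; its part in the results was not tested. Of the 12 heat shock genes, 11 were tested on the 3 scales described below: as deposited, with the common factor, and length-weighted with it. On these 3 scales all 11 had a positive log2 fold change, and none passed the adjusted threshold. DNAJB1 was called with TPM, an alternative scaling given at the end.

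With FPKM as deposited, no translation factor gene was called different after heat shock. Of the 55 members, 49 had a mean of at least 1 FPKM and were tested with limma on log2(FPKM + 1) among 13012 genes. The other 6, EIF3CL, EIF4EBP3, EEF1E1-MUTED, EIF1AD, EIF1AY and EIF5A2, were under this minimum, and 4 of them were listed at 0 in all libraries. EIF1AD was listed in control replicate 2 alone, at 1.27 FPKM. A gene was called where limma's p-value, adjusted by the Benjamini-Hochberg method, was under 0.05 and the change was more than 2-fold. Of the 49 members 0 were called, against 0.0231% of all genes tested, and their adjusted p-values lay between 0.711 and 0.960. At an unadjusted p-value under 0.05, 1 member was higher and 0 were lower, against 3.71% of all genes in either direction. The median log2 fold change of the 49 members was 0.83 and that of all genes tested was 0.45, and 46 members had a positive value. In such bulk samples, fewer cells of a type and less RNA per cell cannot be told apart.

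Most members had the same order of libraries, in which the heat shock libraries were not together. EEF1A1, the main form of the factor that delivers aminoacyl-tRNA, lies on chromosome 6 from 74225473 to 74230755 of hg19 and had 428, 192 and 421 FPKM in the control libraries and 889, 1053 and 220 FPKM after heat shock. EIF4A1, the main helicase subunit, had 192, 85.4 and 187 FPKM in the controls, and 428, 472 and 97.4 FPKM in the heat shock libraries. In both genes heat shock replicates 1 and 2 were highest, and heat shock replicate 3 lay below control replicates 1 and 3. This order was common: heat shock replicates 1 and 2 lay above the other 4 libraries in 42 of the 49 members and in 54.7% of all genes tested. Heat shock replicate 3 lay below control replicates 1 and 3 in 43 members. The share of all genes with that position of heat shock replicate 3 was not counted, so the 43 cannot be set against all genes. The heat shock and control libraries overlapped in all 49 members, while they stood apart in 5.99% of all genes. When heat shock replicate 3 was left out, 38 of the 49 members and 39.4% of all genes were higher at an unadjusted p-value under 0.05, the median log2 fold change of the members was 1.5, and 0 members were called. The median also moved the other way: it was 0.48 without control replicate 2, 0.51 without heat shock replicate 1 and 0.47 without heat shock replicate 2.

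**Figure D1:**
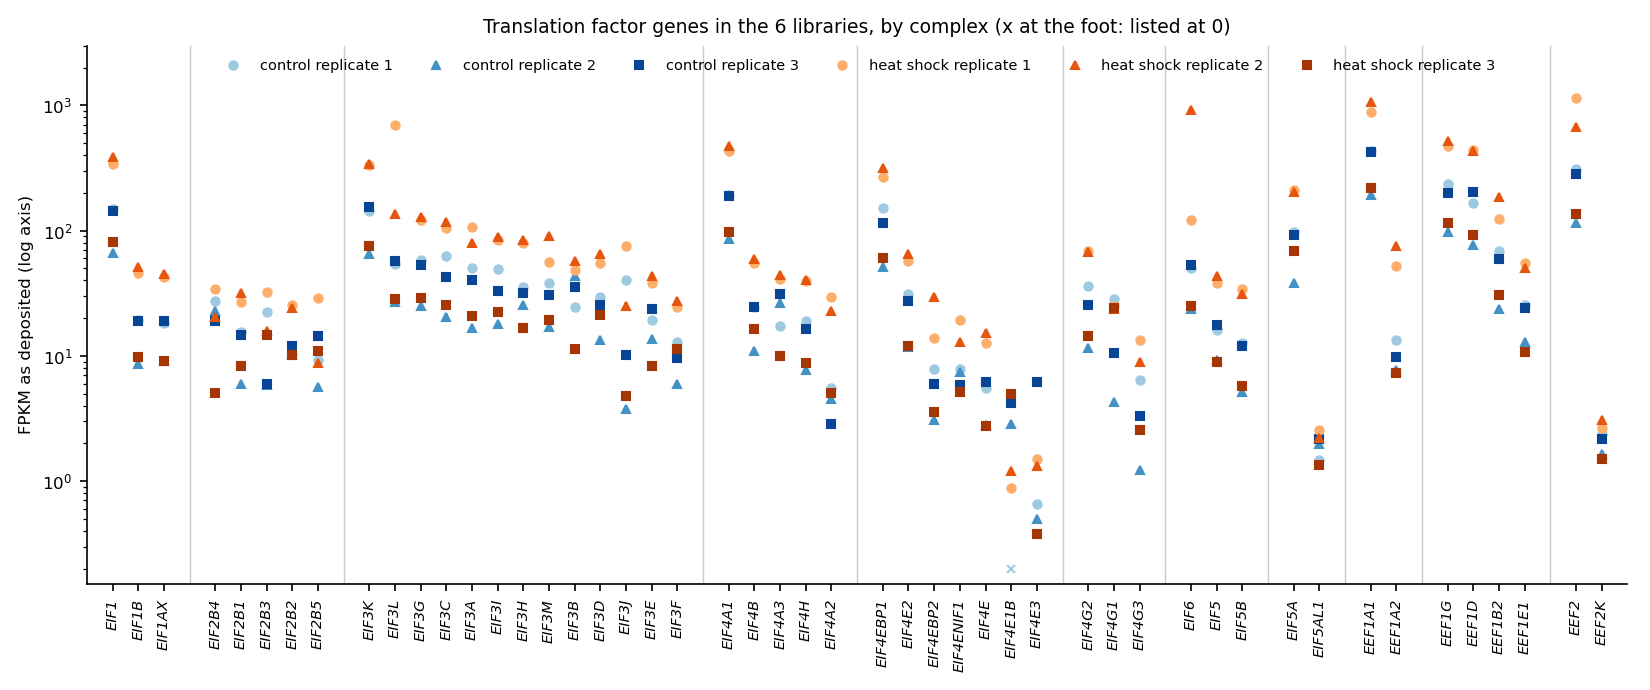
FPKM as deposited (log axis) of the 49 tested translation factor genes in the 3 control (blue) and 3 heat shock (orange to brown) libraries, sorted by complex and by mean. Heat shock replicates 1 and 2 are the highest points of most genes, and control replicate 2 and heat shock replicate 3 the lowest.

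Divided by the common factor, the 49 members had a median log2 fold change of -0.03, with 20 positive and 29 negative, where all genes tested had a median of -0.21. Of the 977 genes that set this factor, 26 were members, and the median of the members was -0.03 also when the factor was taken without them. On this scale 0 members were called, as were 0% of all genes, and 2 members were lower and 0 higher at an unadjusted p-value under 0.05, against 3.23% of all genes. On this scale the libraries stood apart in 4 members and in 7.36% of all genes. A value divided by the common factor is relative to the abundant mRNAs of its library, so a change shared by all of them and the scale of the library cannot be told apart.

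Among the per-library values, assembled fragments gave some members a large FPKM in a single library. The authors' pooled values of EIF6 and EIF3L, given below, were large in the control also. EIF6, which keeps the large ribosomal subunit from joining too early, had 915 FPKM in heat shock replicate 2 and between 23.7 and 120 FPKM in the other 5 libraries. Of the 915 FPKM, 877 belonged to an assembled transcript of 236 nucleotides in 2 exons (chromosome 20 from 33866671 to 33867624 of hg19), where the longest annotated EIF6 transcript has 1259 nucleotides. EIF3L, a subunit of eIF3, had 697 FPKM in heat shock replicate 1, of which 649 belonged to an assembled transcript of 381 nucleotides, and between 26.8 and 136 FPKM in the other 5 libraries. EEF2, the translocation factor, had 1145 FPKM in heat shock replicate 1, and assembled transcripts held 806 of them. The share of the members' summed FPKM held by assembled transcripts was 10.1%, 14.7% and 7.97% in controls and 25.3%, 21.7% and 13.9% after heat shock.

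**Figure D2:**
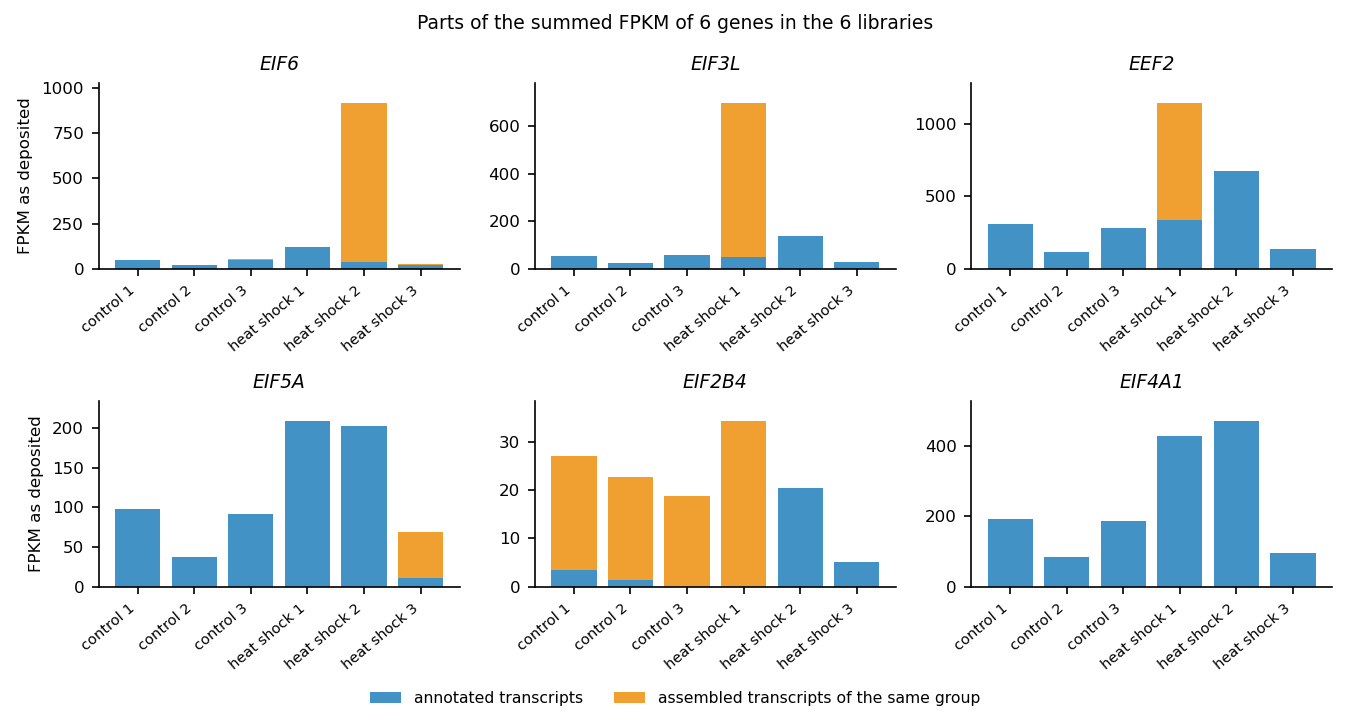
FPKM as deposited of 6 members in each library, split into annotated transcripts (blue) and assembled transcripts of the same group (orange). Orange makes up 877 of 915 FPKM of EIF6 in heat shock replicate 2, and EIF4A1 holds none of it in any library.

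To weigh a transcript by its length, each FPKM was multiplied by the length of its transcript, summed over the gene, divided by the length of the gene's longest annotated transcript and then by the common factor of these values. This length-weighted level was chosen after the values had been seen. Of the 26 members above 10 FPKM in all libraries, the highest library was between 1.04 times (EIF4A1) and 2.36 times (EIF6) the lowest on this scale. The 3 with the least spread were EIF4A1, EIF4B and EEF1A1. EIF4A1 was at 200, 195 and 196 in the control libraries and at 200, 203 and 197 after heat shock, a fold of 1.01 after heat shock with a 95% interval of 0.949 to 1.08 (limma). EIF4B, which stimulates the helicase, was at 25.7, 25 and 25.7 in the controls, and 25.7, 25.5 and 26.2 in the heat shock libraries. EEF1A1 was at 446, 440 and 441 in controls and 416, 452 and 445 after heat shock, a fold of 0.989 (95% interval 0.913 to 1.07). Among those with more spread, EIF3D was at 30.5, 33.9 and 26.4 in the controls, and 25.7, 27.7 and 39.3 in the heat shock libraries.
Over these 26 members, the highest library was a median of 5.48 times the lowest as deposited, 1.48 times after division by the common factor and 1.30 times when also length-weighted. Over all 977 such genes the same medians were 5.63, 1.44 and 1.27. For 37 of the 49 members, the 95% interval of the length-weighted fold lay within a 1.5-fold change in either direction, and for 44 within a 2-fold change. With the common factor alone these counts were 23 and 31, and as deposited both were 0. The share of all genes tested whose interval lay within 1.5-fold was 30.8% length-weighted. It was 8.78% with the common factor and 0% as deposited, and low genes have wider intervals. On the length-weighted scale 0 members were called and 0 passed an unadjusted p-value of 0.05, against 0% and 2.51% of all genes. The median log2 fold change of the members was -0.01 where that of all genes was -0.17.

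**Figure D3:**
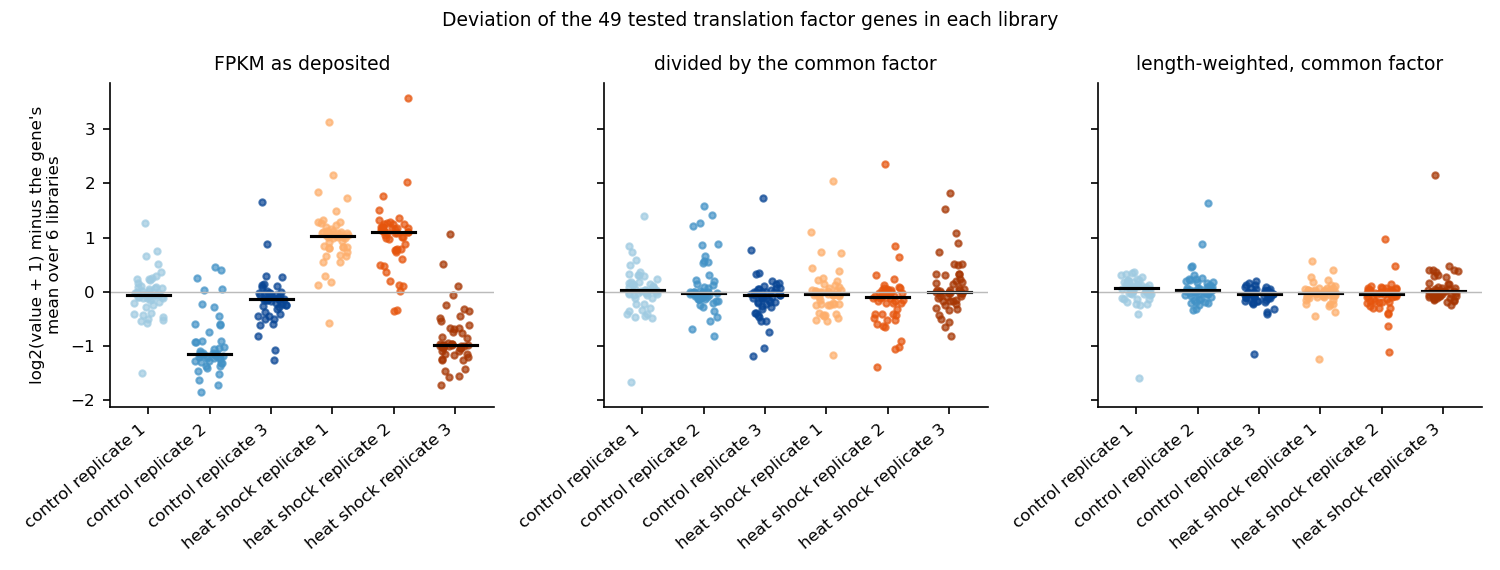
Deviation of each tested member from its own mean over the 6 libraries, on a log2 scale, with FPKM as deposited (left), divided by the common factor (middle) and length-weighted with the common factor (right); the black bar is the median of the 49 genes. As deposited the medians run from -1.16 to 1.10, and length-weighted they run from -0.05 to 0.07.

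Of the factors that scan for the start codon, the group of eIF1 and eIF1A had slightly higher length-weighted levels after heat shock, and none of its genes passed the test. Summed over its 3 tested genes, the level was 195, 192 and 189 in the control libraries and 201, 202 and 203 after heat shock. EIF1 itself (chromosome 17 from 39845127 to 39847898 of hg19), which keeps the scanning ribosome from stopping at wrong codons, was at 156, 152 and 149 in the controls, and at 160, 161 and 164 in the heat shock libraries. The groups of EIF1 did not overlap, but the fold was 1.06 with a 95% interval of 0.987 to 1.14 and the adjusted p-value was 0.891 (limma). In heat shock replicate 2 an assembled transcript of 1172 nucleotides held 116 of the 388 FPKM of EIF1, and the other libraries held no assembled EIF1 transcript. The separation of the groups thus includes this transcript. EIF1B and EIF1AX had log2 fold changes of 0.09 and -0.04. On this scale the heat shock and control libraries stood apart in 3 of the 49 members, EIF1, EIF2B4 and EIF4A2, and in 6.91% of all genes.

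Among the helicases, EIF4A2 had the largest difference, and it did not pass after adjustment. EIF4A2, the second form of eIF4A, whose introns carry small nucleolar RNAs, lies on chromosome 3 from 186501361 to 186507685 of hg19. It had 5.52, 4.51 and 2.87 FPKM in controls and 29.6, 22.6 and 5.05 FPKM after heat shock, and it was the member past an unadjusted p-value of 0.05 (log2 fold change 1.66, SE 0.73, unadjusted p = 0.041, adjusted p = 0.711, limma). Divided by the common factor it was at 5.88, 10.4 and 3.0 in the control libraries and 13.9, 9.75 and 10.4 after heat shock, and the groups overlapped. Length-weighted it was at 5.75, 9.48 and 3.01 in the controls, and 12.3, 11.4 and 9.93 in the heat shock libraries, a fold of 1.85 with a 95% interval of 0.980 to 3.49 and an adjusted p-value of 0.891. The control libraries were thus spread more widely than the heat shock libraries, and control replicate 2 lay just below heat shock replicate 3. Assembled transcripts made up 23.0 of 29.6, 7.28 of 22.6 and 2.66 of 5.05 FPKM in heat shock replicates 1, 2 and 3. They made up 2.41 of 4.51 FPKM in control replicate 2, and none in control replicates 1 and 3. Annotated transcripts alone held 5.52, 2.10 and 2.87 FPKM in controls and 6.64, 15.3 and 2.39 FPKM after heat shock, with overlap.
EIF4A3, the eIF4A-like protein of the exon junction complex, was at 18.2, 24.2 and 19.8 length-weighted in controls and 19.3, 19.1 and 20.4 after heat shock. EIF4H, which also stimulates the helicase, had a length-weighted log2 fold change of -0.03.

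The cap-binding group showed no difference past the test. Its most abundant member was EIF4EBP1, whose protein binds eIF4E and blocks it from eIF4G. It had 151, 51.6 and 116 FPKM in the control libraries and 269, 314 and 60.0 FPKM after heat shock, and its length-weighted level was 143, 118 and 121 in the controls, and 126, 123 and 122 in the heat shock libraries. EIF4E was at 4.05, 4.51 and 4.57 length-weighted in controls and 4.19, 4.29 and 3.89 after heat shock, so that the mRNA of the inhibitor was far above that of the cap-binding protein in every library. All 7 tested genes of this group had a negative length-weighted log2 fold change, from -0.20 (EIF4E3) to -0.01 (EIF4ENIF1), and 0 passed an unadjusted p-value of 0.05. The group median was -0.07, where that of all genes tested was -0.17. Negative values were common on this scale, with 29 of the 49 tested members below 0. EIF4EBP2, a second inhibitor, was at 8.24, 7.0 and 6.25 in the control libraries and 6.48, 5.97 and 7.17 after heat shock. EIF4E1B, an eIF4E relative of germ cells, was listed at 0 in control replicate 1 and at no more than 4.92 FPKM elsewhere, nearly all of it assembled transcripts.
In the eIF4G group, EIF4G1 had 28.7, 4.31 and 10.6 FPKM in the controls, and 24.8, 23.5 and 24.0 FPKM in the heat shock libraries. Length-weighted, it was at 14.7, 9.48 and 10.6 in controls and 11.1, 9.67 and 12 after heat shock, and the groups overlapped. EIF4G2, which lacks the eIF4E-binding part, was at 36.4, 25.2 and 25.7 in the control libraries and 31.1, 28.0 and 28.5 after heat shock, inside the range of the controls. EIF4G3 was at 3.05, 2.60 and 2.08 in the controls, and 2.54, 2.69 and 2.13 in the heat shock libraries.

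The 13 tested subunits of eIF3, the scaffold of the small subunit, had length-weighted log2 fold changes between -0.18 (EIF3B) and 0.14 (EIF3L), with a median of -0.01. Summed over the subunits, the level was 598, 557 and 539 in controls and 579, 535 and 575 after heat shock. EIF3K, the most abundant subunit on this scale, was at 149, 149 and 162 in the control libraries and 156, 147 and 152 after heat shock. EIF3A, the largest subunit, was at 52.1, 38.2 and 42.0 in the controls, and 49.9, 34.5 and 42.4 in the heat shock libraries. The subunits were far from equal in mRNA level, and EIF3J, a loosely bound subunit, was at 13.9, 8.57 and 10.7 in controls and 12.5, 10.7 and 9.61 after heat shock.
After division by the common factor alone, EIF3B and EIF3E stood apart between the groups. EIF3E was at 20.7, 31.3 and 24.6 in the control libraries and 17.9, 18.8 and 17.0 after heat shock (log2 fold change -0.47, SE 0.18, unadjusted p = 0.041, adjusted p = 0.915, limma). Length-weighted, EIF3E was at 20.3, 18.6 and 17.2 in the controls, and 17.9, 18.7 and 16.7 in the heat shock libraries, and the groups overlapped. EIF3B was at 26.0, 100.4 and 37.2 in controls and 22.6, 24.7 and 23.1 after heat shock on the common factor scale, and assembled transcripts held 40.2 of its 43.7 FPKM in control replicate 2. EIF3C and EIF3CL are near-identical copies on chromosome 16, and the FPKM listed for EIF3C (62.3, 20.3 and 42.9 in the controls, 105, 117 and 25.4 after heat shock) may hold reads of both.

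Among the 5 subunits of eIF2B, EIF2B4 had lower values after heat shock on the common factor scale, without passing after adjustment. This difference depended on how transcripts were summed. EIF2B4, the delta subunit, lies on chromosome 2 from 27587219 to 27593324 of hg19 and was at 28.9, 52.5 and 19.6 in the control libraries and at 16.1, 8.81 and 10.4 after heat shock (log2 fold change -1.37, SE 0.40, unadjusted p = 0.015, adjusted p = 0.915, limma). Assembled transcripts held 23.7, 21.4 and 18.8 FPKM of EIF2B4 in the controls and 34.4 FPKM in heat shock replicate 1, and 0 FPKM in heat shock replicates 2 and 3. Annotated transcripts alone held 3.47, 1.41 and 0 FPKM in the controls and 0, 20.4 and 5.05 FPKM after heat shock, with overlap. Length-weighted it was at 11, 15.6 and 11.2 in the controls, and 10.2, 8.70 and 10.1 in the heat shock libraries, a log2 fold change of -0.34 (SE 0.16, adjusted p = 0.891, limma), with the groups still apart. EIF2B1, the alpha subunit, was at 14.7, 13.7 and 11 in controls and 12.6, 13.6 and 12.2 after heat shock. The catalytic subunit gene EIF2B5 was at 4.6, 4.92 and 4.94 in the control libraries and 4.33, 3.33 and 6.52 after heat shock.

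EIF5, EIF5B and EIF6 had length-weighted log2 fold changes of 0.04, 0.10 and 0.39. EIF5, which triggers GTP hydrolysis by eIF2, was at 16.3, 17.0 and 16.3 in the controls, and 17.0, 18.1 and 16.1 in the heat shock libraries. EIF6 was at 36.8, 35.3 and 37.9 in controls and at 38.0, 83.4 and 35.3 after heat shock, so that heat shock replicate 2 alone, the library with the fragment described above, lay outside the range of the others.
EIF5A, which the study silenced in other experiments, lies on chromosome 17 from 7210318 to 7215782 of hg19. It had 98.0, 38.0 and 91.5 FPKM in the control libraries and 209, 202 and 69.0 FPKM after heat shock, a log2 fold change of 1.02 (SE 0.93, adjusted p = 0.711, limma). Length-weighted it was at 99.8, 83.5 and 92.1 in the controls, and at 95, 82.9 and 94.4 in the heat shock libraries, a fold of 0.989 (95% interval 0.840 to 1.16). In heat shock replicate 3, 58.5 of its 69.0 FPKM belonged to an assembled transcript of 836 nucleotides in 1 exon. EIF5A2, its tissue-restricted paralog, was under the minimum, with 0.539, 0.434 and 0.691 FPKM in controls and 1.23, 1.46 and 0.526 FPKM after heat shock. EIF5AL1, an intronless copy of EIF5A that may take up some of its reads, had between 1.34 and 2.57 FPKM.

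No gene of eEF1A, eEF1B or eEF2 passed the test on the length-weighted scale. EEF1A1 was the most abundant member in every library but heat shock replicate 1, where EEF2 was listed higher as deposited, and its copies elsewhere in the genome may share reads with it. EEF1A2, the form of muscle and neurons, had 13.4, 7.66 and 9.73 FPKM in the control libraries and 52.3, 75.7 and 7.23 FPKM after heat shock, and all of the 52.3 FPKM and 72.9 of the 75.7 FPKM were assembled transcripts. Length-weighted it was at 14.7, 14.8 and 10.2 in the controls, and 11.1, 13.7 and 18.0 in the heat shock libraries.
The exchange factor subunits EEF1B2, EEF1D and EEF1G had length-weighted log2 fold changes of -0.01, 0.05 and 0.00. EEF1B2, which exchanges the nucleotide, was at 55.5, 41.5 and 47.7 in controls and 44.8, 50.1 and 48.1 after heat shock. EEF1G was at 244, 223 and 209 in the control libraries and 220, 222 and 232 after heat shock. EEF1D was at 83.1, 84.9 and 102 in the controls, and 99.9, 89.7 and 89.2 in the heat shock libraries, and 2 of its 7 annotated transcripts carried all of its annotated FPKM. EEF1E1, a subunit of the aminoacyl-tRNA synthetase complex, had the lowest value of this group (log2 fold change -0.22, SE 0.10, adjusted p = 0.891, limma). EEF2 had 307, 116 and 284 FPKM in controls and 1145, 675 and 135 FPKM after heat shock, and length-weighted it was at 320, 264 and 298 in the control libraries and 362, 290 and 272 after heat shock. The gene of its inhibiting kinase, EEF2K, was at 2.1, 3.0 and 1.75 in the controls, and 1.23, 1.19 and 2.52 in the heat shock libraries.

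**Figure D4:**
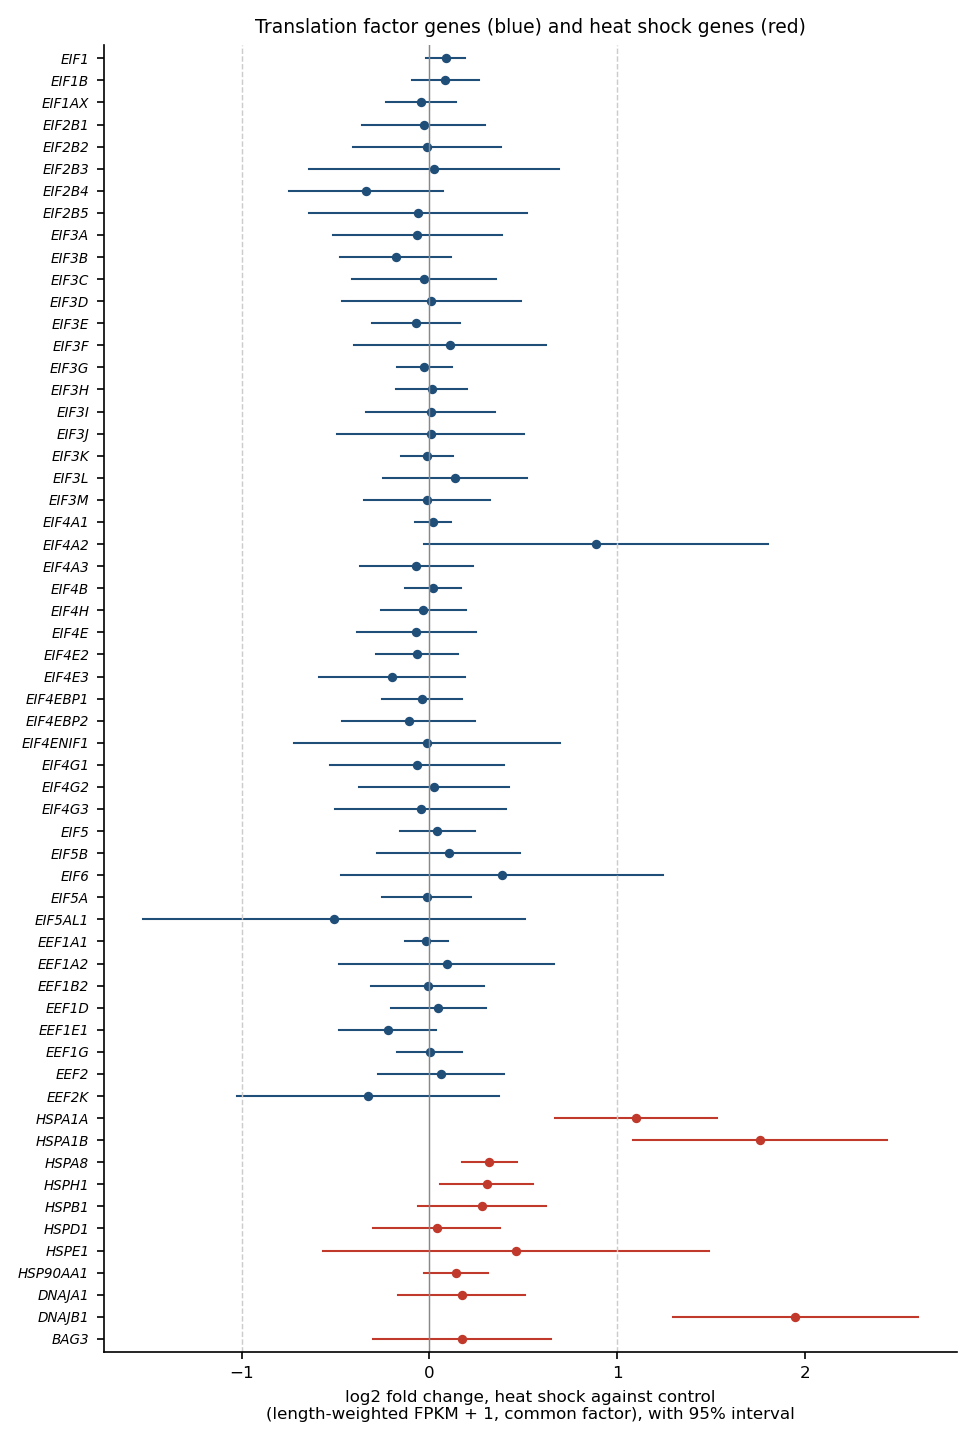
Length-weighted log2 fold change (heat shock against control, common factor) with its 95% interval from limma for 48 tested members (blue) and the 11 tested heat shock genes (red); EIF4E1B is left out because its interval spans 0.102 to 8.21 on the fold scale. The dashed lines mark a 2-fold change, and DNAJB1 and HSPA1B lie to the right of every translation factor gene.

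Ratios of partner factors within a library do not depend on the scaling between libraries. The 14 ratios were tested by two-sided exact permutation of the libraries. With 3 against 3, p cannot go below 0.1, so none could pass a threshold of 0.05. With FPKM as deposited the p-values lay between 0.2 and 1, and all 14 were 1 after adjustment. The ratio of EIF5 to EIF1 was 0.106, 0.140 and 0.124 in controls and 0.111, 0.111 and 0.110 after heat shock. The ratio of EIF4E to EIF4EBP1 was 0.0365, 0.0545 and 0.0538 in the control libraries and 0.0474, 0.0481 and 0.0455 after heat shock. The ratio of EEF1D to EEF1G was 0.706, 0.790 and 1.02 in the controls, and 0.943, 0.835 and 0.796 in the heat shock libraries. In these 3 ratios the heat shock libraries lay within the range of the controls. The ratio of EIF4A1 to EIF4A2 was 34.8, 18.9 and 65.2 in the control libraries and 14.5, 20.9 and 19.3 after heat shock, with overlap (exact permutation p = 0.3). Length-weighted, the scale chosen after the values had been seen, it was 34.8, 20.6 and 65.2 in controls and 16.3, 17.8 and 19.9 after heat shock, without overlap, a log2 difference of -1.0 at the smallest p-value the exact permutation test can give (0.1, adjusted p = 0.969). Assembled transcripts of EIF4A2 enter this ratio, and EIF4A1 had none.

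The heat shock genes show what the same libraries gave for genes that heat is known to raise. DNAJB1, a co-chaperone, was at 11.2, 13.1 and 10.1 length-weighted in the control libraries and at 41.6, 36.2 and 68.8 after heat shock (log2 fold change 1.95, SE 0.26, unadjusted p = 4.85e-04, adjusted p = 0.574, limma). HSPA1B, an inducible form of HSP70, was at 8.98, 18.4 and 9.99 in the controls, and at 40.4, 41.2 and 46.3 in the heat shock libraries (log2 fold change 1.76, SE 0.27, adjusted p = 0.877, limma). HSPA8, the constitutive form, was at 92.7, 92.3 and 86.7 in controls and 110, 119 and 110 after heat shock (log2 fold change 0.32, SE 0.06, adjusted p = 0.891, limma). In all 3 genes the heat shock libraries lay above all controls, and the differences did not pass after adjustment over 13012 genes. The groups also stood apart in HSPA1A, HSPH1 and HSP90AA1, and they overlapped in HSPB1, HSPD1, HSPE1, DNAJA1 and BAG3. On this scale they stood apart in 6.91% of all genes. HSPA6 was under the minimum, between 0.277 and 0.710 FPKM, and was not tested. Of the 11 tested heat shock genes, 5 had an unadjusted p-value under 0.05, all of them higher, with a median log2 fold change of 0.31.

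**Figure D5:**
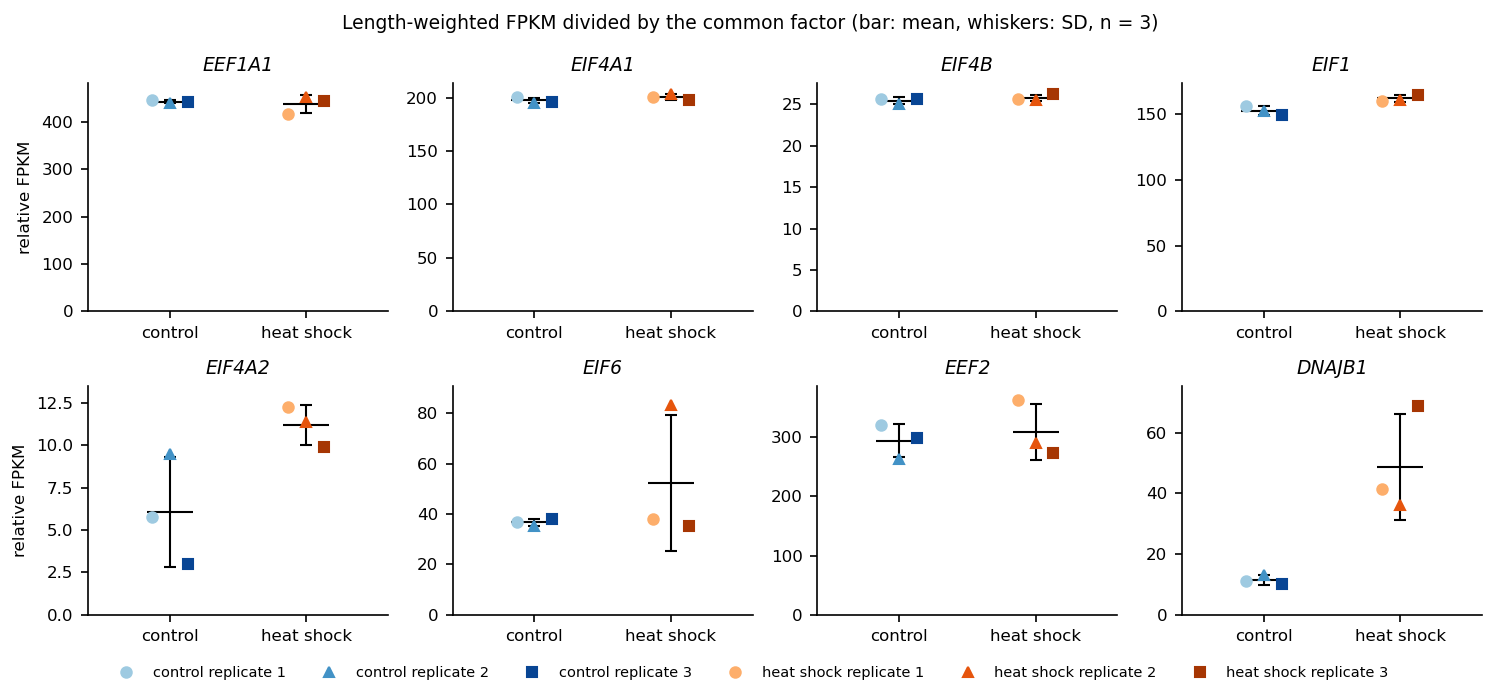
Length-weighted FPKM divided by the common factor of 7 translation factor genes and the heat shock gene DNAJB1 in each library, with the mean and SD of each group (n = 3). EIF4A1 spans 195 to 203 over all 6 libraries, EIF6 has a single high library, and the groups of EIF1, EIF4A2 and DNAJB1 do not overlap.

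A list of 22 other translation genes was measured beside the members: subunits of eIF2, proteins that help scanning or recycling, poly(A)-binding and release factors, enzymes that modify eIF5A, and the kinases MNK and mTOR. All 22 were tested, 0 passed the adjusted threshold on any of the 3 scales, and 7 of the 22 had a positive length-weighted log2 fold change, with a median of -0.08. On that scale the groups did not overlap in 2 of the 22, against 6.91% of all genes, and these lay in opposite directions. PABPC4, a cytoplasmic poly(A)-binding protein, was at 10.2, 14.4 and 10.5 in the control libraries and at 8.23, 7.94 and 9.58 after heat shock (log2 fold change -0.39, SE 0.16, adjusted p = 0.891, limma). HBS1L, which helps release stalled ribosomes, was at 1.53, 1.71 and 1.58 in the controls, and at 1.77, 1.89 and 2.19 in the heat shock libraries (log2 fold change 0.18, SE 0.15, adjusted p = 0.891, limma). DHX29, a helicase of scanning ribosomes, was lower on the common factor scale at an unadjusted p-value (log2 fold change -1.35, SE 0.54, unadjusted p = 0.048, adjusted p = 0.915, limma), and length-weighted its log2 fold change was -0.11. EIF2S1, EIF2S2 and EIF2S3, the subunits of eIF2, had length-weighted log2 fold changes of -0.08, 0.04 and 0.03.

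The 9 members with a pyrimidine run at the start, all of them tested, had length-weighted log2 fold changes from -0.02 to 0.89 with a median of 0.01, and without EIF4A2 none exceeded that of EIF3F (0.11). The 32 tested members with a window and no such run had values from -0.51 to 0.39 with a median of -0.03. The motif is a description of the annotated starts, and no test was made of these groups.

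Assembled single-exon transcripts without a strand were unequal between the libraries. They numbered 141632, 194489 and 45600 in the controls, and 17304, 30334 and 151889 in the heat shock libraries. Those inside the bounds of the tested members held 3.22%, 7.12% and 1.52% of the FPKM times length there in controls and 1.02%, 1.27% and 7.08% after heat shock. Control replicate 2 and heat shock replicate 3, which had the lowest common factors, had the largest share. A covariate marking the 3 libraries richest in these transcripts, control replicates 1 and 2 and heat shock replicate 3, was also given to limma. The median log2 fold change of the members as deposited was then 0.41 in place of 0.83. On that fit 0 members were called and 0 passed an unadjusted p-value of 0.05. The marked libraries are unevenly split between the conditions, so the covariate and heat shock cannot be fully told apart. Annotated transcripts held 26.3%, 15.5% and 34.8% of each whole library's FPKM times length in controls, and 46.2%, 42.9% and 17.2% after heat shock.

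The authors' own table gives 1 pooled FPKM for each condition and no value for single libraries. Of the tested members, 43 had a locus that names no other gene, and in 38 of these the authors' pooled heat shock value was above every single heat shock library, while in 17 their pooled control value was above every control library. For EEF1A1 the authors' pooled values were 449 FPKM in the control and 1942 FPKM after heat shock. The means of its libraries were 347 ± 134 (SD, n = 3) and 721 ± 441 (SD, n = 3) FPKM. For EIF6 the pooled values were 412 FPKM in the control and 1918 FPKM after heat shock, and its highest control library had 53.4 FPKM. For EIF3L the pooled values were 321 FPKM in the control and 1408 FPKM after heat shock, and its highest control library had 57.1 FPKM. The cause of these gaps was not tested.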

How the data were processed

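Total RNA from HEK293 cells, depleted of ribosomal RNA, was sequenced from 3 control and 3 heat shocked samples, grouped by their titles. The authors trimmed the reads with Trimmomatic 0.3.0 after FastQC 0.10.1, mapped them with tophat2 on hg19 and built transcripts of every library in Cufflinks 2.0.2. The deposited value of each transcript is an FPKM with an interval and a coverage. The authors' table of the merged assemblies holds pooled FPKM for each group, which were read, and fold changes, p-values and q-values of their comparison, which were not used. Scaling between libraries is not given in the sources used here.

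Transcripts were joined to genes by RefSeq accession (96.7% of 40803 accessions had a symbol, giving 24325 genes), and an assembled transcript was counted where its group held 1 gene. The tests used log2(FPKM + 1) and covered genes whose mean reached 1 FPKM. They were made with lmFit and trended eBayes of limma 3.58.1 (R 4.3.3), with Benjamini-Hochberg adjustment. The depth per library is known only as relative coverage, and the number of libraries limits the precision. This scale understates the change of low genes. Partner ratios were compared by exact permutation tests (SciPy 1.17.1). The members, the complexes, all gene lists and the alternatives were chosen with earlier results of these data known, and the length-weighted level was added after the values were seen. Genes given in every library were the most abundant member of each complex, both genes of each ratio, EIF5A, any gene called, and up to 5 members in each direction with the lowest p-value on the common factor scale among those whose groups did not overlap. EIF3L, EIF4B and other members outside this rule were added after their values were seen. Strand was assigned by Cufflinks, and how reads were split among near-identical genes is not shown by these values.

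Libraries with the same replicate number did not deviate together from their group means, so the numbers were not taken to pair samples. The fit was tested on simulated data with 200 of 13012 genes changed. With the deposited spread the fit recovered 0% of the 8-fold and 77.0% of the 32-fold changes, and with the spread left after the common factor 64.0% and 89.0%. Of 4-fold changes it recovered 0% and 54.5%. False calls at 8-fold and 32-fold numbered 1 and 9 with the deposited spread, and 8 and 20 with the common factor. Noise was drawn for each gene apart, so shifts shared by a whole library were not simulated. Neither was the length-weighted scale. The 95% intervals are those of limma and cover the spread between 3 libraries.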

Additional observations from a re-analysis of the deposited data

How the results depend on the processing

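No translation factor gene was called under any alternative run: another pseudocount, other scalings, other minimum FPKM, eBayes without a trend, the replicate block, annotated transcripts alone, the length-weighted level, a term for the 3 libraries with most unstranded transcripts, and each library left out. The count over all genes, 3 as deposited, was 1 with median-of-ratios size factors, without a trend and with annotated transcripts alone, and 0 with the common factor in each form, its form without the translation factor genes included, with the length-weighted level and common factor, and with no minimum FPKM. With each library left out it ran from 0 to 17, the highest without heat shock replicate 3. Members past an unadjusted p of 0.05, 1 as deposited, numbered 2 with median-of-ratios size factors and with the common factor (with or without the members in it), and 0 with a minimum of 10 FPKM, with annotated transcripts alone (with or without the common factor), with the length-weighted level and common factor, and with the unstranded term, which gave a member median of 0.409. With each library left out they ran from 0 to 38, and from 0 to 4 with the common factor and 0 to 1 length-weighted. The median log2 fold change of the members, 0.83 as deposited, then ran from 0.475 to 1.497, and with the common factor from -0.062 to 0.040.

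The replicate numbers are not stated to pair the samples: same-numbered libraries had correlations of their deviations from the group means of 0.03, -0.25 and -0.32 across genes on the common factor scale. With the replicate block, 19 genes and 0 members were called and 0 members passed an unadjusted p of 0.05. With the replicate block and the common factor, 0 genes were called and 2 members passed the unadjusted p, and the complex medians were -0.092 for eIF2B, -0.152 for the eIF4E group and -0.177 for eIF5A. Not every library correlated best with its own number.

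The complex medians, positive as deposited, were at other values under these scalings. For eIF2B the median was -0.092 with the common factor (-0.091 without the members in it), 0.027 with TPM and -0.031 length-weighted, and 0.398 with annotated transcripts alone and the common factor. For the eIF4E group it was -0.152 (-0.152 without the members), -0.032 and -0.069, and 0.084 with annotated transcripts alone and the common factor. For eIF5A it was -0.177 (-0.176 without the members), -0.148 and -0.262, and -0.621 with annotated transcripts alone and the common factor. That last setting gave -0.069 for eIF1 and eIF1A, -0.135 for eIF4G, -0.013 for eIF5, eIF5B and eIF6, -0.690 for eEF1A and -0.335 for eEF2 and its kinase. The groups eIF5A, eEF1A and eEF2 with its kinase had only 2 tested genes each as deposited, so 1 gene can set such a median. Annotated EEF1A2 was at 2.91, 0.901 and 9.73 FPKM in controls and 0, 2.82 and 1.33 FPKM after heat shock. EEF1A1 held no assembled transcripts. Annotated transcripts alone gave -0.0997 for eEF1A, and length-weighted with the common factor the medians of eIF4G and eEF1A were -0.046 and 0.038. The cause was not tested. DNAJB1 was called with TPM (log2 fold change 2.72, adjusted p = 0.039, limma). The sign differed in 158 of 986 values of named members. Each alternative setting was compared there with the fit as deposited. Fits without 1 library on the common factor and length-weighted scales were compared with the full fit of that scale. In ratios the sign differed from that as deposited in 22 of 121 values. None of these values was called. The form of the common factor without members, the length-weighted level and annotated transcripts with the common factor were chosen after seeing the data.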
